A study of Danio rerio with 2 samples.

Results

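Matrix metalloproteinases (MMPs) and the tissue inhibitors that hold them in check were followed in the regenerating zebrafish heart through 7 genes: the secreted proteases mmp2, mmp9 and mmp13a, the membrane-type proteases mmp14a and mmp14b, and the inhibitors timp2a and timp2b. The genes were taken by symbol, from a list drawn up with earlier results of these data known. They are 7 of the 31323 gene symbols that stood in both deposited matrices. They occupied 8 of 32057 rows, because mmp13a stood on 2 gene identifiers.

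The study asked how cells of the injured ventricle differ when antigen-presentation genes are lost, and the data are RNA counts of single cells, dissociated from the injured part of the ventricle and its border zone at 120 hours post-cryoinjury (hpci), an injury made with a probe cooled in liquid nitrogen. There were 2 libraries, 1 from wild-type fish and 1 from cd74a;cd74b mutants, and each pooled 4 ventricles from 2 females and 2 males, all adults that had been injured. The mutants carry CRISPR-Cas9 deletions in both zebrafish copies of CD74, the invariant chain of MHC class II, with the allele names bns454 (cd74a) and bns456 (cd74b), in every cell and not in 1 cell type. With 1 library per genotype and no way to tell the pooled fish apart, the spread between fish could not be measured, so no p-value is given, and genotype, pool and library cannot be told apart.

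MMPs are zinc enzymes that cut extracellular matrix. MMP2 and MMP9 are the gelatinases, which cut denatured collagen and basement membrane collagen, and MMP13 is a collagenase. MMP14 sits in the plasma membrane, and in mammals it activates MMP2 in a complex for which TIMP2 is the bridge, although TIMP2 at high levels blocks both enzymes. In the injured zebrafish heart, fibroblasts, epicardium-derived cells and leukocytes are the usual sources of such enzymes while fibrotic tissue is laid down and later removed. RNA levels carry no measure of enzyme activity.

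The wild-type library held 4607 barcodes with 7395919 unique molecular identifiers (UMIs, each standing for 1 captured transcript), and the mutant library 15142 with 22991961. A filter on barcodes, more than 300 genes and at most 70% mitochondrial UMIs, kept 3589 and 7174 of these barcodes with a median of 1404 and 1641 UMIs. The cell numbers given in the study are slightly higher. The mutant cells were the poorer by other measures, with a median of 22.3% against 14.99% mitochondrial UMIs and 392 against 451 genes. Across kept cells cd74a stood at 1170 UMIs per 1000000 non-mitochondrial UMIs (CPM) in the wild-type and 86.9 in the mutant library and cd74b at 496 and 49.8, in the direction of the labels. The libraries shared 15 barcodes, 7 of them kept. Levels are given in this unit, CPM, with exact Poisson 95% intervals, and shares carry exact Clopper-Pearson intervals. Both cover counting error only, not the spread between cells or fish, and counts from the 3′ end are not scaled to gene length.

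Cells were grouped into 16 clusters with the 7 genes left out of the clustering, and clusters were named from marker genes. Fibroblast-like cells numbered 1218 in the wild-type and 2238 in the mutant library, macrophage-like cells 954 and 1468, vascular endothelial-like cells 357 and 1242, and endocardial-like cells 344 and 569. Epithelial-like cells numbered 260 and 145 and also carried epicardial markers, whose list made up 1.495% and 0.785% of their UMIs against 0.734% and 0.561% in fibroblast-like cells. In clusters 5 and 7, named fibroblast-like, 3 of 5 epicardial markers were also over 2-fold, as in the epithelial-like cluster 8. In cluster 5 the median log2 excess was 1.13 for epicardial markers and 1.15 for fibroblast markers. The 428 and 73 cardiomyocyte-like cells came mostly from cluster 4, which also held fibroblast and haemoglobin transcripts. Its fibroblast markers summed to 17510 and 13500 CPM, against 2383 and 648 in the other cardiomyocyte-like cluster, 13. Cluster 15, with 28 wild-type and 1329 mutant cells and a median of 38.6% mitochondrial UMIs, and cluster 16, with 110 mutant cells, stayed unnamed.

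mmp2, the gelatinase that acts with MMP14, was the most counted of the 5 proteases, with 2491 UMIs in the kept wild-type cells and 2526 in the kept mutant cells. Fibroblast-like cells held 67.2% and 68.3% of those UMIs. Their level was 755 CPM (720 to 792) in the wild-type library and 487 (464 to 510) in the mutant library. Epithelial-like cells were next, at 703 (638 to 774) and 418 (344 to 503), and their ratio to fibroblast-like cells, 0.931 (0.834 to 1.04) and 0.858 (0.702 to 1.04), had intervals that included 1. Macrophage-like, endocardial-like and vascular endothelial-like cells were far lower in both libraries. Macrophage-like cells stood at 56.9 and 63.5 CPM, endocardial-like at 64.9 and 67.3 and vascular endothelial-like at 85.9 and 80.5. Fibroblast-like cells thus exceeded macrophage-like cells 13.3-fold (10.4 to 17.1) in the wild-type and 7.67-fold (6.41 to 9.25) in the mutant library.

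The cardiomyocyte-like level of mmp2, 564 and 272 CPM, came from cluster 4, the cluster with fibroblast transcripts. There mmp2 stood at 682 and 686 CPM, against 68.8 in wild-type cluster 13 and 0 of its UMIs in the mutant cells of that cluster. The part of the fibroblast transcripts in the level of cluster 4 was not tested.

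**Figure D1:**
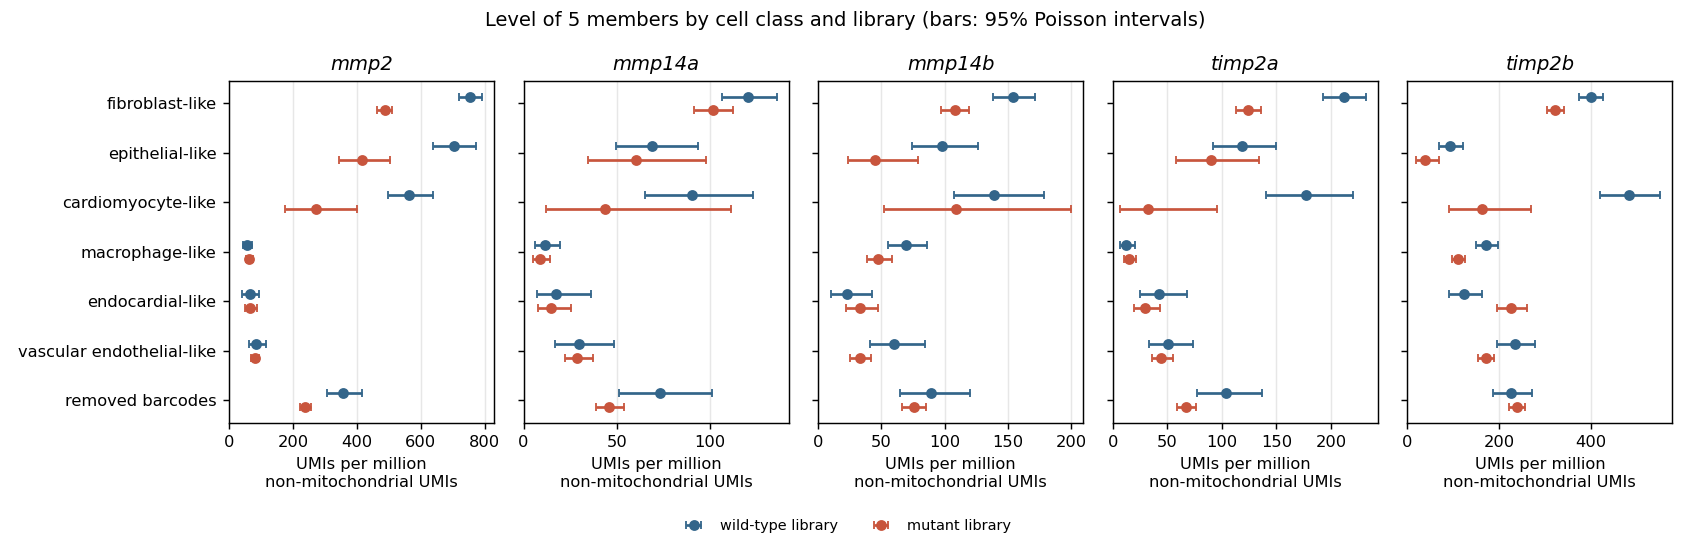
CPM, or UMIs per 1000000 non-mitochondrial UMIs (x axis, linear from 0, its own scale in each panel) of mmp2, mmp14a, mmp14b, timp2a and timp2b in 6 cell classes and the removed barcodes (rows), with 1 point per library and bars for the 95% Poisson interval. Points for mmp2 and timp2a are highest in wild-type fibroblast-like cells (755 and 212 CPM), while timp2b also stays above 100 CPM in macrophage-like, endocardial-like and vascular endothelial-like cells of both libraries.

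mmp14a and mmp14b are the zebrafish co-orthologues of MMP14, the membrane-bound activator of MMP2. In the kept cells mmp14a had 386 wild-type and 542 mutant UMIs and mmp14b 591 and 694. Both stood highest in fibroblast-like cells if the mixed cardiomyocyte-like class is set aside, mmp14a at 120 (106 to 136) and 102 (91.3 to 113) CPM and mmp14b at 154 (138 to 171) and 108 (97.2 to 119). Epithelial-like cells stood at 69.2 and 60.2 CPM for mmp14a and at 97.8 and 45.2 for mmp14b, below fibroblast-like cells in both libraries with intervals of the ratio that left out 1.

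The pair differed in macrophage-like cells. There mmp14a was at 11.6 CPM (6.31 to 19.4) in the wild-type and 8.93 (5.29 to 14.1) in the mutant library, while mmp14b was at 69.3 (55.3 to 85.8) and 47.6 (38.6 to 58.1). mmp14b thus took 84 of the 98 mmp14 UMIs of wild-type macrophage-like cells, 85.7% (77.2 to 92.0), and 96 of 114 in the mutant library, 84.2% (76.2 to 90.4). In fibroblast-like cells its share was 56.1% (52.0 to 60.1) and 51.5% (47.8 to 55.1). The shift towards mmp14b in macrophage-like cells was present in both libraries, although different clusters supplied most of these cells, cluster 2 with 909 wild-type cells and cluster 11 with 1359 mutant cells. The mmp14b-to-mmp14a ratio in vascular endothelial-like cells, 66.7% and 53.2% mmp14b, lay nearer to fibroblast-like cells.

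timp2a and timp2b are the zebrafish co-orthologues of TIMP2. timp2a, with 681 and 718 UMIs, was far lower in macrophage-like than in fibroblast-like cells, as mmp2 and mmp14a were. It stood at 212 CPM (193 to 232) and 124 (113 to 136) in fibroblast-like cells, at 118 and 90.3 in epithelial-like cells, and at 12.4 and 14.9 in macrophage-like cells. timp2b was the more counted inhibitor, with 1542 and 2305 UMIs. Its level in fibroblast-like cells was 399 CPM (373 to 427) and 322 (304 to 341). The mixed cardiomyocyte-like class stood higher in the wild-type library, at 482 CPM, and lower in the mutant library, at 163. Fibroblast-like cells exceeded macrophage-like cells 2.33-fold (2.00 to 2.72) and 2.91-fold (2.52 to 3.38) in timp2b. That gap was smaller than for mmp2, mmp14a and timp2a, where timp2a had 17.1-fold and 8.34-fold. It was near that of mmp14b, 2.22-fold and 2.26-fold.

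In vascular endothelial-like cells timp2b stood at 233 CPM (194 to 278) in the wild-type and 170 (153 to 189) in the mutant library. Macrophage-like cells followed at 172 (149 to 197) and 111 (96.5 to 126), and endocardial-like cells at 122 (90.6 to 162) and 226 (196 to 260). The epithelial-like cells, which were close to fibroblast-like cells in mmp2, had the lowest timp2b, 92.8 (69.9 to 121) and 37.6 (18.1 to 69.2), or 4.304-fold and 8.56-fold below fibroblast-like cells. timp2b therefore made up 44.0% and 29.4% of the timp2 UMIs of epithelial-like cells, 65.4% and 72.2% in fibroblast-like cells, and 93.3% (89.2 to 96.2) and 88.1% (83.5 to 91.9) in macrophage-like cells. Of the timp2 UMIs of endocardial-like cells it held 49 of 66 in the wild-type and 198 of 224 in the mutant library. In vascular endothelial-like cells it held 125 of 152 and 347 of 438. Wild-type cluster 13, the cardiomyocyte-like cluster with few fibroblast transcripts, held 36 timp2b UMIs at 413 CPM, and its 34 mutant cells held 4 at 72.0.

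At the call used here, a level at least 2-fold above all other kept cells of the library for rows with at least 50 UMIs, 3 of 6 member rows passed in wild-type fibroblast-like cells (mmp2, mmp14a and timp2a), where 8.29% of all genes did. In the mutant library 4 of 6 passed, mmp14b being added, against 7.37% of all genes. mmp14b in the wild-type library lay just under that fold at 1.98, and timp2b at 1.95 and 1.81. None of the 6 rows passed in epithelial-like cells, against 3.62% and 5.92% of all genes, with mmp2 at 1.64-fold and 1.70-fold. Conversely, 3 of 6 rows were at least 2-fold lower in wild-type macrophage-like cells (mmp2, mmp14a and timp2a) and 4 of 6 in mutant ones, timp2b being added, where 24.6% and 21.3% of all genes were. The mmp13a rows had fewer than 50 UMIs each and did not enter these counts. The members were chosen with earlier results of these data known, so these counts only describe them.

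The proteases made up 61.6% (60.3 to 62.8) of the 5786 UMIs of the 7 genes in wild-type kept cells and 56.3% (55.1 to 57.5) of 6914 in mutant kept cells. The classes differed more than the libraries. Epithelial-like cells had the highest protease share, 80.6% (77.4 to 83.6) and 80.5% (73.8 to 86.1), and fibroblast-like cells stood at 63.0% (61.4 to 64.6) and 61.2% (59.7 to 62.7). Cardiomyocyte-like cells, with the mixed cluster 4, stood at 55.7% (51.9 to 59.5) in the wild-type and 69.0% (55.5 to 80.5) in the mutant library, the latter from 58 UMIs. Macrophage-like cells stood at 46.5% (41.7 to 51.4) and 52.5% (48.2 to 56.8). Inhibitor UMIs outnumbered protease UMIs in vascular endothelial-like cells, with a protease share of 40.9% (34.8 to 47.1) and 41.4% (37.9 to 45.1), as they did in mutant endocardial-like cells. The endocardial-like share was 41.6% (32.4 to 51.2) in the wild-type library, an interval that included equal numbers, and 32.5% (27.5 to 37.9) in the mutant library. The intervals of macrophage-like, vascular endothelial-like and endocardial-like cells overlapped in the wild-type library. In cardiomyocyte-like cluster 13 only 8 of 52 wild-type member UMIs and 1 of 7 mutant ones were of proteases, most of the rest being timp2b.

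**Figure D2:**
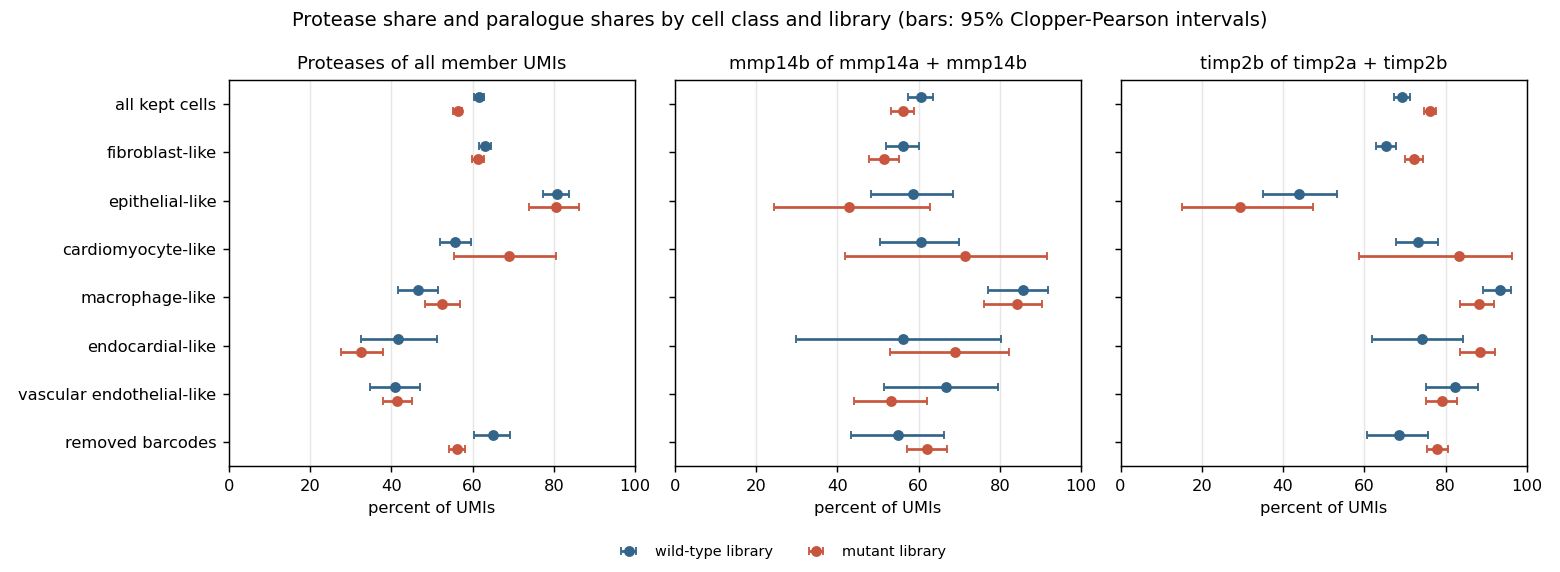
Percent of UMIs (x axis, 0 to 100) that came from proteases among all 7 members, from mmp14b among the mmp14 pair, and from timp2b among the timp2 pair, by cell class (rows) and library, with bars for the 95% Clopper-Pearson interval. The protease share is highest in epithelial-like cells (80.6% and 80.5%), and both paralogue shares are highest in macrophage-like cells of the wild-type library (85.7% mmp14b and 93.3% timp2b).

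Free RNA in the suspension gives every barcode a few UMIs of genes its cell does not use, and the barcodes removed by the filter, 1018 wild-type and 7968 mutant, give a mixture of it with damaged or small cells. In them mmp2 stood at 358 and 239 CPM, above its level in leukocytes and endothelium. mmp2 made up 70.4% (60.3 to 79.2) and 72.7% (65.5 to 79.2) of the summed mmp2, mmp14a and timp2a UMIs in macrophage-like cells, against 66.9% and 67.9% in the removed barcodes and 69.5% and 68.3% in fibroblast-like cells. The mmp2 share of these 3 genes thus did not differ beyond counting error between macrophage-like cells, removed barcodes and fibroblast-like cells, and whether their low level in macrophage-like cells is free RNA was not tested. In vascular endothelial-like cells mmp2 made up less of that sum, 51.7% (40.8 to 62.4) and 52.2% (46.6 to 57.9). mmp14b and timp2b did not keep to that ratio. mmp14b made up 54.9% (46.7 to 62.9) and 42.9% (36.3 to 49.6) of the mmp14b and mmp2 UMIs of macrophage-like cells, against 20% (14.9 to 25.9) and 24.0% (21.5 to 26.7) in the removed barcodes. timp2b made up 38.7% and 49.9% of the timp2b and mmp2 UMIs of the removed barcodes. The same share was 75.1% and 63.5% for macrophage-like, 65.3% and 77.0% for endocardial-like and 73.1% and 67.9% for vascular endothelial-like cells. By level, however, mmp14b was lower in macrophage-like cells than in the removed barcodes. In removed barcodes with under 3 neutrophil-gene UMIs, timp2b stood at 211 CPM (172 to 256) and 238 (222 to 255). The macrophage-like, endocardial-like and mutant vascular endothelial-like levels were no higher, and the wild-type vascular endothelial-like level, 233, lay within that interval. Whether these levels are free RNA was not tested.

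Shares of cells were compared after every cell was thinned to 500 non-mitochondrial UMIs. At least 1 mmp2 UMI was then found in 31.3% (28.7 to 34.0) of wild-type and 22.1% (20.4 to 23.9) of mutant fibroblast-like cells, and in 31.3% and 16.6% of epithelial-like cells. In macrophage-like cells, where mmp2 was low, it was found in 2.96% and 3.43%. The median depth before thinning was 1288 and 1169 UMIs in fibroblast-like and 1080 and 1112 in macrophage-like cells, and 4, 11, 8 and 9 shallower cells were left out. Unthinned, the mmp2 shares were 58.5% and 43.7% in fibroblast-like and 6.18% and 7.90% in macrophage-like cells. timp2b was found in 11.0% and 13.6% of thinned fibroblast-like cells (13.5% and 14.2% with another random draw, so no gap between the libraries is read from them), 9.14% and 8.89% of vascular endothelial-like cells, 7.72% and 5.89% of macrophage-like cells and 4.67% and 7.22% of endocardial-like cells.

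Co-detection of the activator genes with mmp2 was compared at the same depth. Among thinned wild-type fibroblast-like cells, 14.2% (10.9 to 18.1) of those with an mmp2 UMI also had an mmp14 UMI, against 11.99% (9.86 to 14.4) of those without. In the mutant library the shares were 15.2% (12.2 to 18.7) and 8.88% (7.58 to 10.3). Over the whole class the intervals thus overlapped in the wild-type library only. Within mutant clusters 5, 6 and 7 the mmp14 shares were 17.0%, 16.4% and 14.4% with mmp2 and 10.7%, 5.53% and 9.23% without. In each of these clusters the intervals overlapped. A timp2 UMI was found in 21.1% (17.1 to 25.5) and 17.3% (14.8 to 20.01) of wild-type cells with and without mmp2, and in 16.5% (13.3 to 20.04) and 19.2% (17.4 to 21.1) of mutant cells. Both pairs of intervals overlapped. Within cluster 6 the timp2 shares with and without mmp2 were 31.6% (24.7 to 39.1) and 20.4% (17.0 to 24.1) in the wild-type library. In the mutant library they were 31.2% (19.9 to 44.3) and 22.6% (17.4 to 28.4), with overlapping intervals. Cluster 5 had 12.7% and 11.9% in the wild-type library. The order turned in mutant cluster 5, at 10.7% (5.66 to 17.97) and 18.45% (12.9 to 25.2), and in mutant cluster 7, at 15.7% and 18.7%, both with overlapping intervals. Unthinned, the shares in fibroblast-like cells were 50.8% and 36.4% in the wild-type and 41.7% and 36.4% in the mutant library, with no correction for depth.

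The fibroblast-like cells fell into 3 clusters that differed in the balance of mmp2 and the inhibitors. Cluster 5, led by ccl25b and tfa, held 509 wild-type and 280 mutant cells, cluster 6, led by col11a1a, tpm4b and lmod1b, held 689 and 297, and cluster 7, led by mgp and thbs4b, held 20 and 1661, so it was almost all of the mutant library. mmp2 was highest in cluster 5, at 968 CPM in the wild-type and 999 in the mutant library, against 629 and 359 in cluster 6. The ratio of cluster 5 to cluster 6 was 1.54 (1.40 to 1.70) and 2.79 (2.37 to 3.29).

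timp2b went the other way. It stood at 270 and 153 CPM in cluster 5 and 485 and 419 in cluster 6, a ratio of 0.556 (0.475 to 0.648) and 0.365 (0.276 to 0.477). timp2a stood at 140 and 133 CPM in cluster 5 and 253 and 182 in cluster 6, with a ratio of 0.552 (0.444 to 0.684) in the wild-type and 0.732 (0.526 to 1.01) in the mutant library, where the interval included 1. Proteases made up 75.3% (72.9 to 77.5) and 82.2% (79.2 to 84.9) of the member UMIs of cluster 5 but 55.4% (53.4 to 57.5) and 48.6% (45.0 to 52.3) of those of cluster 6. For mmp14a and mmp14b the ratio of cluster 5 to cluster 6 was near 1 in the wild-type library, 0.975 and 0.969, and above it in the mutant library, 1.53 (1.09 to 2.14) and 1.64 (1.13 to 2.40). Mutant cluster 7 lay between for the protease share, at 58.9% (57.0 to 60.8), with mmp2 at 426, timp2a at 108 and timp2b at 329 CPM.

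The leading genes of cluster 6 include lmod1b, a gene of smooth muscle, so fibroblast-like cells were also split by acta2, the smooth muscle actin gene that marks mural cells and activated fibroblasts. This split was made after the cluster values were seen. Of the thinned fibroblast-like cells, 75 wild-type and 103 mutant cells had an acta2 UMI, and 8 other mural markers stood 5.16-fold and 3.89-fold higher in them. timp2b stood at 672 against 378 CPM in the wild-type library, a ratio of 1.78 (1.45 to 2.17), and at 558 against 310 in the mutant library, a ratio of 1.80 (1.45 to 2.21). mmp2 was lower in the cells with acta2, at 527 against 774 and 326 against 494 CPM, ratios of 0.680 (0.542 to 0.845) and 0.659 (0.499 to 0.854). The timp2a ratio was 1.68 (1.25 to 2.23) in the wild-type and 1.12 (0.718 to 1.68) in the mutant library, and intervals for mmp14a and mmp14b included 1. Of the cells with acta2, 66 wild-type ones lay in cluster 6, and 20 and 79 mutant ones in clusters 6 and 7. Cluster 5 thus fell mostly among the other cells. Within mutant cluster 6 the timp2b ratio was 0.419 (0.199 to 0.783), opposite to the 1.61 of wild-type cluster 6 and the 2.41 of mutant cluster 7. The mmp2 ratio was 0.776 (0.605 to 0.984) within wild-type cluster 6. It was 1.21 (0.752 to 1.87) within mutant cluster 6 and 0.669 (0.463 to 0.937) within mutant cluster 7.

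**Figure D3:**
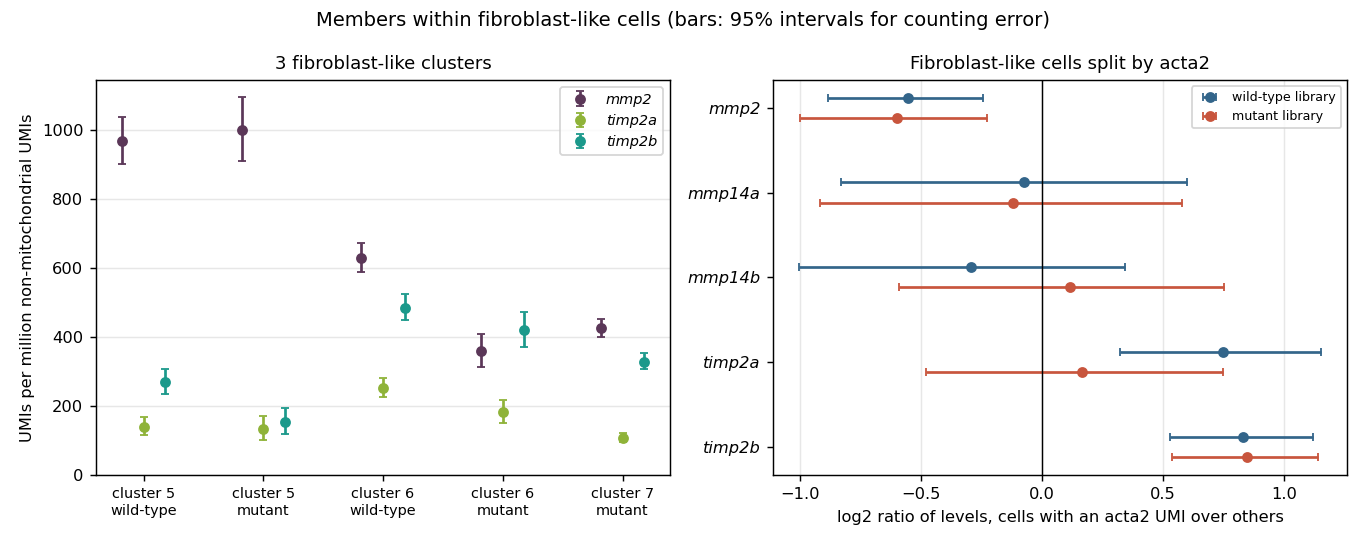
Left, CPM (y axis) of mmp2, timp2a and timp2b in the fibroblast-like clusters 5, 6 and 7, with wild-type cluster 7 (20 cells) left out; right, log2 ratio (x axis) of the level in fibroblast-like cells with an acta2 UMI over the others for 5 members, with bars for 95% intervals of counting error. mmp2 is highest in cluster 5 of both libraries (968 and 999 CPM), and cells with acta2 lie above the others in timp2b (1.78-fold and 1.80-fold).

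A few fibroblast-like cells carried many of the timp2b UMIs. In the wild-type library 41 cells with at least 5 timp2b UMIs held 401 of 885, and in the mutant library 30 such cells held 215 of 1142. For mmp2, 75 and 42 such cells held 588 of 1674 and 280 of 1726 UMIs. The highest single cell had 40 and 15 timp2b UMIs, and for mmp2 54 and 22. These counts depend on each gene's level and on cell depth, so they are not compared between genes.

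Between the libraries, most members were lower in the mutant library, as most genes were: the median of 8330 genes with at least 50 UMIs was -0.47 on the log2 scale, mutant over wild type. Across kept cells the log2 ratio was -0.87 (-0.95 to -0.79) for mmp2, -0.81 (-0.97 to -0.66) for timp2a, -0.66 (-0.82 to -0.50) for mmp14b, -0.40 (-0.59 to -0.21) for mmp14a and -0.31 (-0.40 to -0.22) for timp2b. The summed proteases stood at -0.76 (-0.83 to -0.70) and the summed inhibitors at -0.45 (-0.53 to -0.37). Relative to the median gene, mmp2 lay at -0.40 and timp2b at 0.16. The sign of timp2b thus turned with that reference, as did that of mmp14a, whose -0.40 lay above the median of -0.47. Of the 6 rows tested none exceeded its wild-type level 2-fold in the mutant library, as 1.69% of all genes did, and none fell 2-fold short of it, as 10.0% did. mmp13a stayed out because neither of its rows reached 50 UMIs, but summed over both it had 34 and 30 UMIs and a log2 ratio of -1.07 (-1.83 to -0.32), past 2-fold. Ribosomal protein genes made up 47.7% of the kept mutant UMIs and 39.4% of the wild-type ones, and with those genes left out of the scaling the summed proteases stood at -0.55 and the inhibitors at -0.23.

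In fibroblast-like cells, where the median of 4977 genes was -0.38, mmp2 stood at -0.63 (-0.73 to -0.54), timp2a at -0.77 (-0.96 to -0.58), mmp14b at -0.51 (-0.73 to -0.30), timp2b at -0.31 (-0.44 to -0.18) and mmp14a at -0.25 (-0.48 to -0.01). None of 5 rows passed 2-fold in either direction, against 2.65% of all genes higher and 8.92% lower. The 12 fibroblast markers of the same cells summed to 24880 CPM in the wild-type and 16610 in the mutant library. The 12 cardiomyocyte markers summed to 1968 and 3984 there, and the 7 endocardial markers to 1758 and 3014. The part of these differences in the member ratios was not tested. The mmp2 difference depended on the cluster. Within cluster 5 it was 0.05 (-0.12 to 0.21) and within cluster 6 it was -0.81 (-1.03 to -0.60). timp2b did the reverse, at -0.82 (-1.23 to -0.42) in cluster 5 and -0.21 (-0.42 to -0.003) in cluster 6, and mmp14a stood at 0.57 (0.12 to 1.01) in cluster 5. Without cluster 7 the log2 ratio of the summed proteases in fibroblast-like cells was -0.24.

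**Figure D4:**
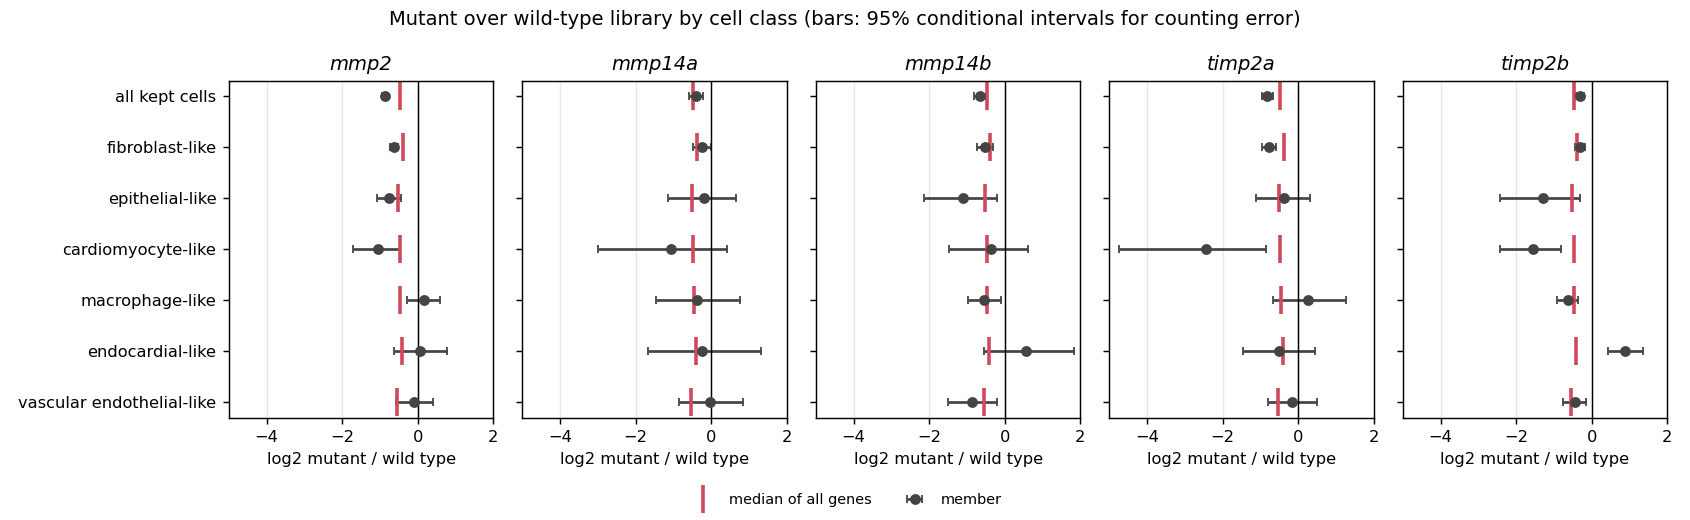
Log2 ratio of the mutant over the wild-type level (x axis) for 5 members by cell class, with bars for 95% intervals of counting error and a mark for the median of all genes with enough UMIs in that class. mmp2 lies at -0.63 in fibroblast-like cells and at 0.16 in macrophage-like cells, and timp2b is above 0 in endocardial-like cells only (0.88).

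In macrophage-like cells, the class with the highest wild-type cd74a level, mmp14b stood at -0.54 (-0.98 to -0.10) and timp2b at -0.63 (-0.91 to -0.35), close to the class median of -0.47 over 3201 genes. mmp2 there stood at 0.16 (-0.28 to 0.60), with an interval that included 0. The macrophage markers of this class summed to 22570 CPM in the wild-type and 12050 in the mutant library. Cluster 11, which supplied most of its mutant cells, also had 3 of 4 T or NK markers over 2-fold. The part of these differences in the macrophage-like ratios was not tested. timp2b in endocardial-like cells stood at 0.88 (0.43 to 1.37), where the class median was -0.42. mmp14b was also higher there in the mutant library, at 33.1 CPM from 29 UMIs against 22.5 from 9. mmp2 stood at 67.3 against 64.9 CPM, and mmp14a and timp2a were lower. Endocardial-like cells came mostly from cluster 9 in the wild-type and from cluster 14 in the mutant library. Within cluster 9 alone timp2b stood at 119 CPM from 47 UMIs in the wild-type and 268 from 35 UMIs in the mutant library, a log2 ratio of 1.17 (0.49 to 1.83). In the mutant endocardial-like cells 11 cells with at least 5 timp2b UMIs held 73 of the 198, or 36.9%, and no wild-type endocardial-like cell had that many. Vascular endothelial-like cells, where timp2b stood at -0.45, came mostly from cluster 10 in the wild-type (240 cells) and from cluster 3 in the mutant library (808 cells), where 3 of 4 vascular endothelial markers but 2 of 7 shared endothelial markers were over 2-fold.

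mmp9, the gelatinase that mammalian neutrophils store in granules, and mmp13a, a collagenase, were rare. mmp9 had 61 UMIs in 49 of the kept wild-type barcodes and 99 in 89 of the kept mutant ones, 11.2 CPM (8.60 to 14.4) and 9.84 (7.996 to 11.98). Its level was about the same in fibroblast-like cells (9.93 and 7.05), macrophage-like cells (8.25 and 7.44) and vascular endothelial-like cells (13.1 and 9.82), with overlapping intervals. The removed barcodes stood at 71.2 and 21.5.

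The removed barcodes held a small source of mmp9. In the wild-type library 9 of them, with 212 to 298 genes each, had at least 3 UMIs of the neutrophil genes mpx, lyz, npsn and lect2l, a cut chosen after the values were seen. They held 22 of the 35 mmp9 UMIs of the removed wild-type barcodes, in 6 of the 9, at 6029 CPM (3778 to 9128), against 26.6 (14.2 to 45.6) in the other removed barcodes. The same 9 held 14 of 30 UMIs of adam8a, a membrane protease of leukocytes. They also held 8 of 111 timp2b UMIs, in 5 barcodes, at 2192 CPM (946.5 to 4320), against 211 in the other removed barcodes. Of mmp13a they held 3 of 9 UMIs, at 822 CPM (169.5 to 2403), against 12.3. Kept barcodes with that many neutrophil UMIs numbered 9 and 10 and had 4 and 7 mmp9 UMIs, 228 and 262 CPM, and the 3 such barcodes removed from the mutant library had 1.

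mmp13a had 34 UMIs in 27 kept wild-type barcodes and 30 in 17 kept mutant barcodes, summed over its 2 identifiers. The identifier ENSDARG00000012395, had 5 and 10 UMIs and ENSDARG00000114451 had 29 and 20. Reads may be shared between these copies, so the split is uncertain. Macrophage-like cells held 17 and 23 of the UMIs, at 14.02 CPM (8.17 to 22.5) and 11.4 (7.23 to 17.1), against 1.35 and 1.13 in fibroblast-like cells and 18.3 and 8.36 in the removed barcodes. In the mutant library 15 of the 30 UMIs lay in 2 barcodes, with 10 in the highest.

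Over 12 points, the 6 named classes in each of the 2 libraries, the genes whose levels tracked each member most closely among 3976 genes were listed with Pearson's r on log2(CPM + 10). The points share libraries and depth, so these values only describe, and by Spearman's rank correlation 0 of the 3 genes remained among the closest for mmp2 and timp2a, 1 for mmp14b, and 2 each for mmp14a and timp2b. mmp2 was tracked by fn1b, a fibronectin gene (0.99), si:ch211-137i24.10 (0.99) and C25H11orf96 (0.98). mmp14a was tracked by col6a1 and col12a1a, collagen genes, and mdka, a midkine growth factor (0.97 each). Both col12a1a and mdka were among the fibroblast markers used to name the classes, so their pattern is not independent of the naming. timp2a was tracked by col6a3 and col6a1 (0.97 each) and glis2a (0.96). The closest genes to mmp14b were CR753876.1 (0.94), si:ch211-288g17.3 (0.93) and si:ch211-253b8.5 (0.92). Those closest to timp2b were zc3h15 (0.92), tmem214 (0.90) and mibp2 (0.88). Between members, mmp2 and mmp14a tracked each other at 0.95, mmp14a and timp2a at 0.95 and mmp2 and timp2a at 0.88, while mmp2 and timp2b stood at 0.17.

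Of 59 other listed genes of pericellular proteolysis, 54 were in the files and 20 had at least 50 UMIs. Between the libraries 1 of the 20 was past 2-fold in the direction of the mutant and 5 were past it in the direction of the wild type, with a median log2 ratio of -0.70 beside -0.47 for all genes. Over all genes 1.69% and 10.0% were past those folds. Other MMPs were nearly absent. mmp13b, a further collagenase, was the only 1 of 18 to reach 50 UMIs, with 35 wild-type and 23 mutant UMIs, and mmp15a had 17 and 26. Among other inhibitors 3 of 6 did so: timp4.2 with 35 and 17 UMIs, timp4.3 with 31 and 25, and tfpi2 with 10 and 52, the single gene in the higher direction.

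ADAM and ADAMTS proteases, which shed membrane proteins or cut matrix, had 8 of 13 members tested, with 2 at least 2-fold lower beside 10.0% of all genes. adam10a, a sheddase, had 1089 and 1194 UMIs and a log2 ratio of -0.76 (-0.88 to -0.64). adam8a had 423 and 505 UMIs, stood highest in macrophage-like cells at 117 and 66.5 CPM, and had a ratio of -0.63. adam9 stood at -1.26 (-1.55 to -0.96) from 222 and 172 UMIs and was the only gene of the 10 with at least 200 UMIs past 2-fold.

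In the plasminogen system, a second route of matrix proteolysis, none of 3 tested genes passed. serpine2 stood at -0.78 from 252 and 273 UMIs. Of the activators and partners of MMPs none of 5 passed. bsg, or basigin, an inducer of MMPs, had 1405 and 1942 UMIs and a ratio of -0.42, and lrp1aa, a receptor that takes up protease complexes, had 446 and 569 UMIs and a ratio of -0.54.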

How the data were processed

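Per the labels and the study's methods, the authors dissociated each pool with a cardiomyocyte isolation kit, removed dead cells, made 10x Chromium 3′ libraries and aligned and counted reads with STARsolo to danRer11. The deposited matrices hold unnormalized UMI counts per gene and barcode. The authors used Scanpy downstream. Here barcodes with more than 300 genes and at most 70% mitochondrial UMIs were kept, doublets were left in (no caller was run), and the 37 mitochondrial genes were left out of the denominators. Clustering used scanpy 1.11.5 (2000 variable genes chosen over the libraries, 50 components, 15 neighbours, Leiden resolution 1, no batch correction). The members, the 59 other listed genes of pericellular proteolysis, mitochondrial genes and ribosomal protein genes were left out of it. The cell type markers used for naming were not left out. Naming thresholds were set after the clusters were seen: at least 4 markers with 10 UMIs, 3 of them over 2-fold, and a lead over the next class. Classes rebuilt in this way may differ from the study's own annotation.

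UMIs were summed per class and library. Poisson and Clopper-Pearson intervals (95%) and conditional intervals of ratios came from scipy 1.17.1. Only the ratio intervals were tried on simulated counts. Those counts were Poisson draws, which the intervals assume, and left out the spread between cells. With 1 library per genotype no test was run. A gene was called at a 2-fold difference if it had at least 50 UMIs. A level of 0 allows up to 3 UMIs. Thinning to 500 UMIs used a fixed seed, and a second seed was tried.

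The members and lists were chosen with earlier results of these data known. Named genes were all members, the 3 closest in pattern to each, and per list the 2 with most UMIs plus those past 2-fold with at least 200 UMIs. The values of 1 gene that this rule names are not reported here. The alternatives were other cell filters, depths, thinning seeds, scalings, clusterings, class rules and rank correlation. After seeing the data, values without clusters 3, 4 or 7, with neutrophil-marker barcodes set apart and with the acta2 split were added. No sequences or coordinates are given.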

Additional observations from a re-analysis of the deposited data

Results flagged for a closer look

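The log2 ratio of the mutant over the wild-type level of timp2b had opposite signs in different classes: it was 0.88 in endocardial-like cells, whereas fibroblast-like cells stood at -0.31, macrophage-like cells at -0.63, vascular endothelial-like cells at -0.45, epithelial-like cells at -1.30 and cardiomyocyte-like cells at -1.56. The epithelial-like and cardiomyocyte-like values rested on 10 and 15 mutant UMIs. The cardiomyocyte-like value had an interval of -2.43 to -0.81. It was -0.73 as a mean over cells and 0.12 with cells named by their largest marker share. With 1 library per genotype, the difference between classes was not tested. In the mutant library 11 of the 569 endocardial-like cells held 73 of the 198 timp2b UMIs.

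mmp9 stood at 6029 CPM in the 9 wild-type barcodes that the filter removed and that held at least 3 UMIs of neutrophil genes, which lie outside the compared cells. The other removed wild-type barcodes stood at 26.6 CPM.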

How the results depend on the processing

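No paired analysis was possible because each genotype had 1 library. Each result was recomputed under several settings, and the counts here are of pairs of a result and a setting. Of 99 pairs for protease shares 75 stayed within the counting interval of the main value. So did 594 of 791 pairs for levels and 304 of 406 for log2 ratios. Fewer stayed for shares of cells with a UMI (7 of 24) and for co-detection (0 of 8), where most settings changed the depth. Under limits set for them, 2 of 5 pairs stayed for the closest genes in pattern. For the counts of other listed genes past 2-fold 0 of 2 did. At a minimum of 200 UMIs those went from 1 to 0 higher and from 5 to 1 lower. Of the pairs for log2 ratios 35 changed sign, 16 of them under scaling to the median gene ratio.

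The protease share of kept wild-type cells was 60.2% with more than 500 genes per cell and 63.9% as a mean over cells, and in mutant cells it was 54.7% without cluster 7 and 57.5% without cluster 3. In fibroblast-like cells it was 60.5% (wild-type) and 59.0% (mutant) with more than 500 genes, 66.2% and 56.1% at Leiden resolution 2, 65.8% and 62.9% without the top 5% of cells, and 67.5% and 63.4% as a mean over cells. Without cluster 7 the mutant share was 65.3%. At resolution 2 the libraries thus stood further apart.

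The log2 ratio of the summed proteases in kept cells was -0.91 with more than 500 genes, -0.62 without the top 5% of cells, -0.55 as a mean over cells, -0.55 without ribosomal protein genes, -0.29 against the median gene, -1.09 without cluster 7 and -0.67 without cluster 3. That of the inhibitors was -0.61, -0.30, -0.16, -0.23 and 0.024 under the first 5 of these and -0.68 without cluster 7. In fibroblast-like cells the proteases stood at -0.76 at resolution 2, -0.38 without ribosomal protein genes, -0.18 against the median gene and -0.24 without cluster 7. The inhibitors stood at -0.14 at resolution 2, -0.31 without the top 5% of cells, -0.26 as a mean over cells, -0.27 without ribosomal protein genes and -0.074 against the median gene. Naming cells by their largest marker share turned timp2b in cardiomyocyte-like cells to 0.12. The cause was not tested. At resolution 0.5 endocardial-like and vascular endothelial-like cells merged, so endocardial-like cells have no values of their own there. Values counted there as vascular endothelial-like are of the merged cells. The depth limits mmp9 and mmp13a most, with fewer than 100 UMIs per library.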
